A study of Rattus norvegicus and Heterocephalus glaber with 6 samples.

Results

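The genes described here mark hepatic stellate cells and the collagen-rich matrix they lay down: Col1a1, Col1a2, Col3a1, Des, Acta2, Dcn, Pdgfrb, Reln and Timp1. They were chosen by symbol, and a row was found for 8 of the 9 in each rat table, out of 22549 rows. Acta2 had no row there and is not analysed here. None of the 9 had a row among the 734 rows of each naked mole rat table (0 of 9), so the values below are from rat. The samples are livers of rats and of naked mole rats (NMR), a subterranean rodent, all held at 8% oxygen for 8 hours, with 3 polyadenylated RNA libraries per species. The labels give no strain, age, sex or genotype. Every library used here shares the low-oxygen exposure, and normoxic livers were not analysed here, so no effect of oxygen was measured. Nothing in the labels says that the libraries of a species came from separate animals.

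Stellate cells lie in the space between hepatocytes and the sinusoidal endothelium, where they store vitamin A and carry the intermediate filament desmin. After injury they become myofibroblasts that secrete fibrillar collagens, contract and divide in response to platelet-derived growth factor. Portal fibroblasts and vascular smooth muscle share several of these genes, so none of the 9 belongs to stellate cells alone. In whole liver, fewer cells of a type and less RNA per cell cannot be told apart.

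The 8 genes did not share 1 order across the rat libraries. All but Col3a1 had a mean level below the median of the rat rows that averaged 1 FPKM or more. Col1a1, Col1a2 and Col3a1 were highest in rat 1 and lowest in rat 2. Pdgfrb had the same order, but its highest library was only 1.15 times its lowest. Des and Dcn stood highest in rat 3, Reln was lowest in rat 3, and Timp1 was nearly level. Values are FPKM, a fragment measure corrected for the length of the transcript and the size of the library, so levels can be set against each other between genes. The median of the 8 means was 3.17 FPKM, against 6.74 FPKM over the 9994 rat rows that averaged 1 FPKM or more, and each of the 8 passed that minimum. Below, all rows means these 9994 rows unless another filter is given. The FPKM of a rat library summed to 527133 to 531399 with Alb, which has a value in rat 3 alone, left out, and the absolute depth is unknown. Markers of the tissue were present: each of the 12 hepatocyte markers with a value in all 3 rat libraries averaged 1 FPKM or more, as did 15 of 20 other stellate cell markers, among them Ecm1 and Colec11.

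Promoter windows are shown for a gene of each order: Col1a2 for the collagens, Des for the genes highest in rat 3, Reln, and Timp1. The RefSeq table, build GRCr8, held a window for 5 of the 9 genes (these and Acta2), running from 250 bases before the annotated start to 50 bases after it. Each is printed 5′ to 3′ on the gene's strand, with motif matches in capitals.
Col1a2 (chr4:33518307-33518606, plus strand): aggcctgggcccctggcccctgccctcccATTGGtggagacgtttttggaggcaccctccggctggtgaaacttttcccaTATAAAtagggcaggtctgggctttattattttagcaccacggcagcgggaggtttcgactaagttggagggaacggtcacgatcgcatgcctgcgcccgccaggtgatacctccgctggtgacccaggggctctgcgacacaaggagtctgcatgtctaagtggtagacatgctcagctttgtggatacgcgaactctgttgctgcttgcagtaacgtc
Des (chr9:84299376-84299675, plus strand): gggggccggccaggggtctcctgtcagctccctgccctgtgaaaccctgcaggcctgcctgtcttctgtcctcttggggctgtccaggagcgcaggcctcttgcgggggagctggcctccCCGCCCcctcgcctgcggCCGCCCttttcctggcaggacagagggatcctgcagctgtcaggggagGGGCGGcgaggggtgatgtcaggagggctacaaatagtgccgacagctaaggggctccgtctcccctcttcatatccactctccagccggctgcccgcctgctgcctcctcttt
Reln (chr4:13628318-13628617, plus strand): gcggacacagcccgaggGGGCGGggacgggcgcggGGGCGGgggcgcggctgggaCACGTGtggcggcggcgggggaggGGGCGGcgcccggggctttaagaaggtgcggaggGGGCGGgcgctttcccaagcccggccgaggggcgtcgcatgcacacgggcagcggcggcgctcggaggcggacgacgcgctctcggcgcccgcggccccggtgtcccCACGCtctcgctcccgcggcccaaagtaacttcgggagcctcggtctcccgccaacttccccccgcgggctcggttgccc
Timp1 (chrX:3771073-3771372, minus strand): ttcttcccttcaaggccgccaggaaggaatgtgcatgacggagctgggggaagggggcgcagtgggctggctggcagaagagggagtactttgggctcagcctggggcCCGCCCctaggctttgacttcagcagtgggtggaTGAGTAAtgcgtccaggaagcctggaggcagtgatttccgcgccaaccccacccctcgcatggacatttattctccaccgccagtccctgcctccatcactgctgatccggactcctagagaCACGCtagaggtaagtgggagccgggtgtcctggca

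The motifs searched, on both strands, were TATAAA (the TATA box), the CCAAT box, GGGCGG (the GC box), an AP-1 site written TGANTCA, both cores of the hypoxia response element, which read ACGTG or else GCGTG, a STAT site of the form TTCNNNGAA and the CArG box of muscle genes. A variant of the AP-1 site, TGAGTAA, was added after the Timp1 window had been read. Col1a2 held TATAAA 170 bases before the start, a motif found in 14.2% of the 33469 windows of the table, and an inverted CCAAT 221 bases before it (37.5% of windows). Des held the GC box at 3 places and Reln at 4, a motif found in 33.1% of windows. Both windows were rich in G and C, at 67.7% for Des and 79.0% for Reln, against a median of 51.7%. Reln also held ACGTG on both strands of the same palindrome, 195 and 194 bases before the start (19.3% of windows), and an inverted GCGTG 30 bases before it (29.7%). Timp1 held TGAGTAA 108 bases before the start (2.90% of windows), a GC box at 142 bases before it and an inverted GCGTG 15 bases into the transcript. Neither TGANTCA (7.33% of windows), TTCNNNGAA (8.87%) nor a CArG box (1.64%) was in any of the 4 windows, which says only that these letters are not there. The reads were not tied to these windows, and a match is not a binding site.

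Col3a1, which encodes the chain of type III collagen, was the most abundant of the 8. Its row lies on chromosome 9 from 44281581 to 44317831, in the coordinates of the deposited tables, whose build is not given in the sources used here. It stood at 21.0, 13.6 and 18.3 FPKM in rat 1, rat 2 and rat 3, a mean of 17.6 ± 3.77 (SD, n = 3). Rat 1 was highest, and rat 2 lay below both rat 1 and rat 3.

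Col1a2 encodes the alpha 2 chain of type I collagen, the main fibre of scar tissue, and lies on chromosome 4 from 29393644 to 29428572. It had 6.50, 3.55 and 5.17 FPKM in rat 1, rat 2 and rat 3 (5.07 ± 1.48, SD, n = 3). Col1a1, which encodes the alpha 1 chain, lies on chromosome 10 from 83622437 to 83639368. It had 1.94, 0.695 and 1.35 FPKM in rat 1, rat 2 and rat 3 (1.33 ± 0.625, SD, n = 3), the lowest mean of the 8. In rat 1 the level was 2.80 times that in rat 2 for Col1a1, 1.83 times for Col1a2 and 1.55 times for Col3a1. The 3 collagen genes therefore shared 1 order, rat 1 above rat 3 above rat 2, with the widest fold in the gene of lowest level.

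The confidence bounds that Cufflinks gives to each row describe the precision within a library, not the variation between animals. All 3 pairs of libraries had bounds that did not overlap for each of Col1a1, Col1a2 and Col3a1. For Col1a1 rat 1 had bounds of 1.66 and 2.22 FPKM, rat 2 of 0.540 and 0.846, and rat 3 of 1.14 and 1.57. Each of the 8 genes lay within its own bounds in every library. The bounds of the highest and the lowest library were apart for 6 of the 8, against 29.5% of the 8246 rows whose values lie within their bounds. Timp1 and Pdgfrb were the genes whose bounds overlapped.

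**Figure D1:**
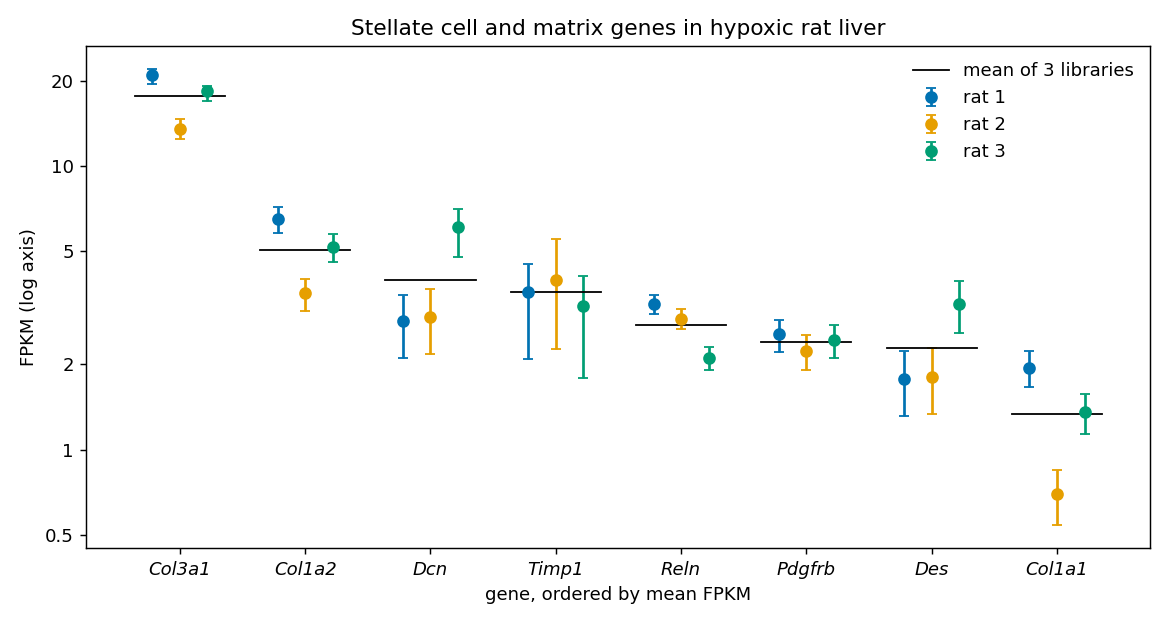
FPKM (log axis) of the 8 genes in the 3 rat libraries, with genes ordered by mean. Points are libraries, vertical bars the confidence bounds of the deposited tables, and black lines the mean of the libraries. The collagen genes have rat 2 as their lowest library, at 13.6 FPKM for Col3a1, and Dcn and Des have rat 3 as their highest, at 6.11 and 3.27 FPKM.

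Pdgfrb, the receptor through which platelet-derived growth factor drives stellate cell division, varied least. It lies on chromosome 18 from 57014474 to 57053581 and had 2.55, 2.22 and 2.44 FPKM in rat 1, rat 2 and rat 3 (2.40 ± 0.167, SD, n = 3). The order was that of the collagens, but the highest library was only 1.15 times the lowest and the bounds overlapped, so this order was not resolved. The genes of the platelet-derived growth factor family were also low: Pdgfc had a mean of 3.14 FPKM, Pdgfa 1.90, Pdgfd 0.408 and Pdgfb 0.371. Pdgfra, the sister receptor, had 1.92, 1.37 and 1.69 FPKM in rat 1, rat 2 and rat 3.

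Des and Dcn formed a second pattern. Des, the muscle-type intermediate filament that marks stellate cells in rat liver, lies on chromosome 9 from 74637782 to 74645499. It had 1.78, 1.81 and 3.27 FPKM in rat 1, rat 2 and rat 3 (2.29 ± 0.853, SD, n = 3). Dcn encodes decorin, a small leucine-rich proteoglycan that binds collagen fibrils, and lies on chromosome 7 from 35004233 to 35045191. It had 2.83, 2.93 and 6.11 FPKM in the same libraries (3.96 ± 1.87, SD, n = 3). Rat 1 and rat 2 were within 0.04 of each other on log2(FPKM + 1) for both genes, while rat 3 was 2.16 times rat 1 for Dcn and 1.84 times for Des. The order of rat 1 and rat 2 was reversed for both genes with libraries scaled by the median of ratios or the upper quartile, while rat 3 was highest under each scaling run.

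Smooth muscle markers were also often highest in rat 3. Of the 12 on the list, 8 reached 1 FPKM and 5 of these 8 were highest in rat 3, against 33.5% of all rows, a count that median-of-ratios scaling left at 5. Tagln, an actin-binding protein of smooth muscle, had 9.32, 8.72 and 20.5 FPKM in rat 1, rat 2 and rat 3, and Tpm2, a tropomyosin, 3.14, 3.77 and 9.78. Myh11, the smooth muscle myosin heavy chain, had 0.680, 1.05 and 3.09 FPKM, and Actg2, a smooth muscle actin, 0.285, 0.947 and 2.29. The list summed to 97.3, 113 and 131 FPKM in rat 1, rat 2 and rat 3, and none of its genes was at 0 in all 3. Cald1 and Tpm1, its most abundant members, were highest in rat 2, at 47.3 and 31.2 FPKM.

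Kupffer cell markers, and the sums of bile duct and mesothelial markers, were highest in rat 3 too. Of 12 Kupffer cell markers at 1 FPKM or more, 10 were highest there, against 33.5% of all rows, and the list summed to 375, 385 and 516 FPKM in rat 1, rat 2 and rat 3, with Marco and Emr1 at 0. Cholangiocyte markers summed to 24.8, 27.6 and 30.4 FPKM, with Krt19, a bile duct keratin, at 1.20, 1.34 and 2.77. Mesothelial markers summed to 2.10, 1.74 and 3.03 FPKM, with none of the 7 reaching a mean of 1. They were divided: Upk3b, Upk1b, Wt1 and Lrrn4 were highest in rat 1. Gpm6a, Msln and Krt7, which is also on the cholangiocyte list, were highest in rat 3. Portal fibroblast markers summed to 229, 278 and 275 FPKM, most of it Dpt (217, 273 and 262). Of the 4 at 1 FPKM or more, 2 were highest in rat 3, against 33.5% of all rows (1 when scaled by the median of ratios, against 32.0%). Lowest in rat 2 were 3 of the 4, against 22.6% of all rows (also 3 when scaled, against 33.5%). The part of these cell types in the values of Des and Dcn was not tested.

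**Figure D2:**
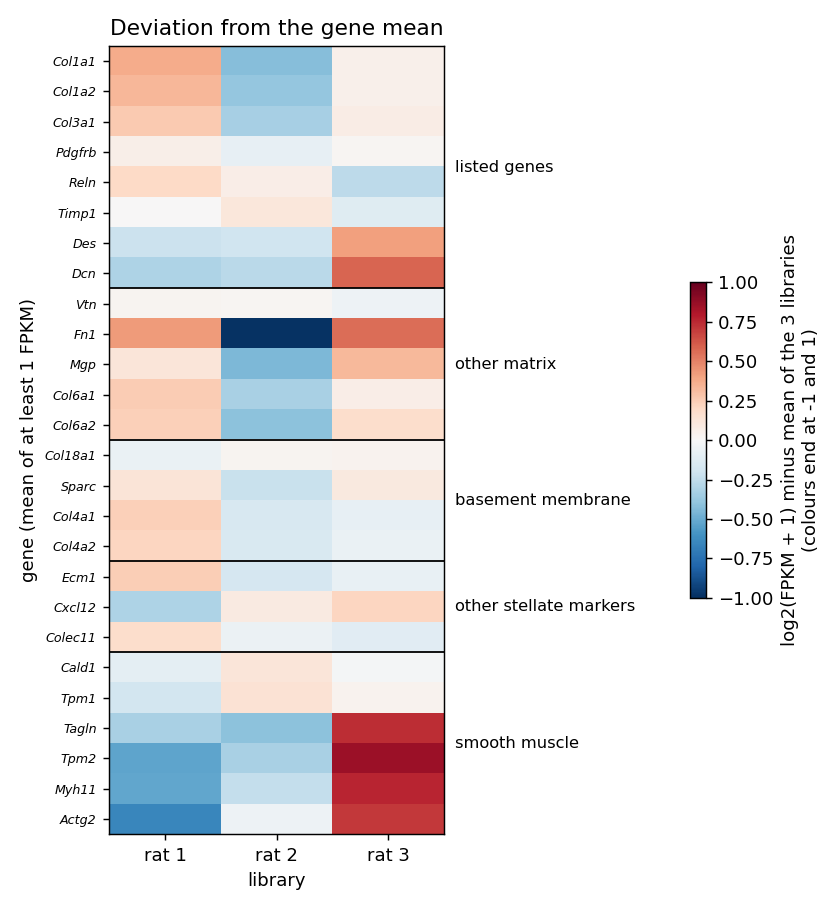
Deviation of each gene from its own mean over the rat libraries, on log2(FPKM + 1). Shown are the 8 genes and some of the genes named in the text from 4 related lists (averaging 1 FPKM or more). Of the other stellate markers, Ecm1, Cxcl12 and Colec11 are drawn. Vim, Cygb, Colec10 and Hgf, none of them highest in rat 1 on FPKM as deposited, are not drawn. Red is above and blue below the gene's mean. Col1a1, Col1a2 and Col3a1 are blue in rat 2, and Des and Dcn are red in rat 3 together with Tagln, Tpm2, Myh11 and Actg2.

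Reln ran the other way from Des and Dcn. Reelin is a large secreted glycoprotein known from neuronal migration and made in rodent liver by stellate cells. Its row lies on chromosome 4 from 8150872 to 8609141. It had 3.26, 2.90 and 2.10 FPKM in rat 1, rat 2 and rat 3 (2.75 ± 0.593, SD, n = 3), and the bounds of rat 3 were below those of both other libraries. Of the genes that carry the reelin signal, the receptor genes Vldlr and Lrp8 had means of 0.231 and 0.0464 FPKM. The adaptor Dab1 had 1.47, 1.02 and 1.77 FPKM in rat 1, rat 2 and rat 3.

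Other stellate cell markers were often highest in rat 1, as Reln was, but divided over their lowest library. Of the 15 other stellate markers at 1 FPKM or more, 10 were highest in rat 1, against 17.5% of all rows. As many were lowest in rat 2 (6, against 22.6% of rows) as in rat 3 (6, against 28.9%). Ecm1, an extracellular matrix protein, had 166, 124 and 132 FPKM in rat 1, rat 2 and rat 3, and Colec11, a collectin, 42.8, 36.2 and 34.7. Lrat, which esterifies retinol for storage, lay at 0.492, 0.526 and 0.549 FPKM and Gfap at 0.953, 1.15 and 0.800. Others on the list were not highest in rat 1 on FPKM as deposited. Cxcl12, with 75.2, 99.3 and 108.5 FPKM, and Cygb, with 4.56, 5.48 and 6.61, rose from rat 1 to rat 3, and Vim was also highest in rat 3. Colec10 and Hgf were highest in rat 2. With libraries scaled by the median of ratios, 11 of the 15 were highest in rat 1, against 31.5% of all rows.

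Timp1, an inhibitor of matrix metalloproteinases and a gene known to respond to inflammation, was nearly level across the libraries. It lies on chromosome X from 12542495 to 12547094 and had 3.60, 3.96 and 3.21 FPKM in rat 1, rat 2 and rat 3 (3.59 ± 0.374, SD, n = 3). The highest library was 1.23 times the lowest and all bounds overlapped, so its order was not resolved. Timp3 was higher, at 7.62, 6.27 and 6.84 FPKM in rat 1, rat 2 and rat 3, and Timp2 stood at 4.83, 3.87 and 6.99. Of the matrix metalloproteinase genes, Mmp19 (a mean of 21.1 FPKM) and Mmp14 (18.5) were the most abundant, while the collagenase Mmp13 and the stromelysin Mmp3 were listed at 0.

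Counted over the 8 genes, 4 had the order rat 1, rat 3, rat 2 from high to low, against 8.56% of the 9994 rows. The order rat 3, rat 2, rat 1 was that of 2 genes (19.5% of rows), rat 1, rat 2, rat 3 that of Reln (8.97%) and rat 2, rat 1, rat 3 that of Timp1 (19.9%). By the highest library, 5 of the 8 were highest in rat 1 and 1 in rat 2, whereas 48.9% of all rows were highest in rat 2. Rat 2 was lowest for 4 of the 8 and for 22.6% of all rows. These backgrounds depend on how the libraries are scaled. On FPKM as deposited, the median log2 difference of all rows was -0.11 for rat 1 minus rat 2. Scaling by the median of ratios removed most of that shift and left 4 of the 8 in the order of the collagens, against 16.2% of rows, and 6 of the 8 lowest in rat 2, against 33.5% of rows. On the deposited scale the difference of rat 1 minus rat 2 was 0.80 for Col1a1, 0.72 for Col1a2 and 0.60 for Col3a1, on log2(FPKM + 1). The collagen chains are transcribed from separate genes on 3 chromosomes, but the libraries compared are the same for all of them, so the shared order is 1 observation on 3 libraries and no test was possible.

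Over all 3 libraries, the spread was wider for 6 of the 8 genes than the median of all rows. The median difference between the highest and lowest library was 0.61 on log2(FPKM + 1), against 0.26 over all rows and 0.26 over rows with a mean of 1 to 25 FPKM. Dcn was widest on this scale at 0.89, a wider spread than 95.8% of rows. With a pseudocount of 0.1 Col1a1 was widest, at 1.36 against 1.08 for Dcn, and by fold it was widest too. On log2(FPKM + 1), Pdgfrb was narrowest at 0.14, wider than 19.4% of rows. The highest library had at least 2 times the FPKM of the lowest for 2 of the 8, Col1a1 and Dcn, against 6.01% of rows. The size of these spreads depended on single libraries. Without rat 2 the spread of Col1a1 was 0.32, of Col1a2 0.28 and of Col3a1 0.19, and without rat 3 that of Dcn was 0.04, of Des 0.02 and of Reln 0.13. Without rat 3 the median spread of the 8 genes was 0.13, below the 0.18 of all rows, so the wider spread does not hold without that library. The median spread was 0.30 without rat 2, against 0.14 for all rows, and 0.42 without rat 1, against 0.16.

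**Figure D3:**
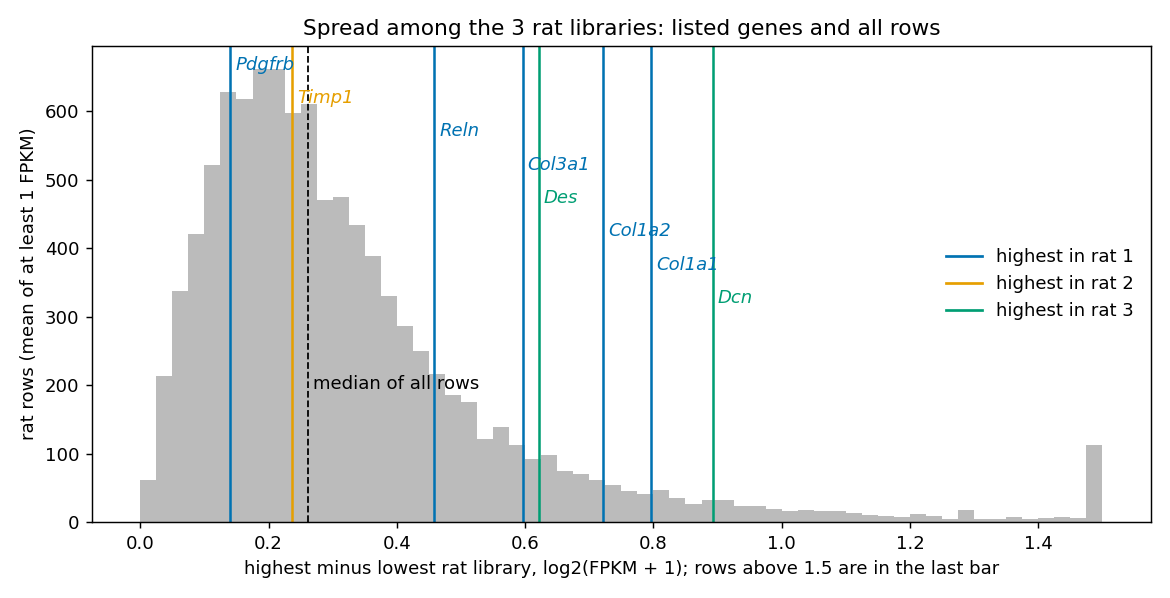
Difference between the highest and the lowest rat library on log2(FPKM + 1), for the 9994 rat rows averaging 1 FPKM or more (grey bars, number of rows) and for the 8 genes (lines coloured by their highest library). Pdgfrb and Timp1 lie at 0.14 and 0.24, below the median of 0.26 (dashed), and the other 6 genes lie above it, up to 0.89 for Dcn.

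Type I collagen is built from a pair of alpha 1 chains and a single alpha 2 chain, yet Col1a2 had more FPKM than Col1a1 in every library. The ratio of Col1a1 to Col1a2 was 0.299 in rat 1, 0.196 in rat 2 and 0.262 in rat 3 (0.252 ± 0.0523, SD, n = 3). The ratio was above 1 in the 3 other pairs computed. Type V collagen, which is also commonly a trimer of alpha 1 pairs with alpha 2, had a Col5a1 to Col5a2 ratio of 2.02, 2.30 and 2.30. For Col4a1 and Col4a2 of the basement membrane the ratio was 1.30, 1.29 and 1.27, and for Col6a1 and Col6a2 it was 1.26, 1.34 and 1.15. Of the minor type XI chains, Col11a1 was listed at 0 and Col11a2 at 0.164, 0.0453 and 0.110 FPKM. FPKM divides by the length of the annotated transcripts, which the tables do not give, and the part of the gene models in the Col1a1 value was not tested.

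**Figure D4:**
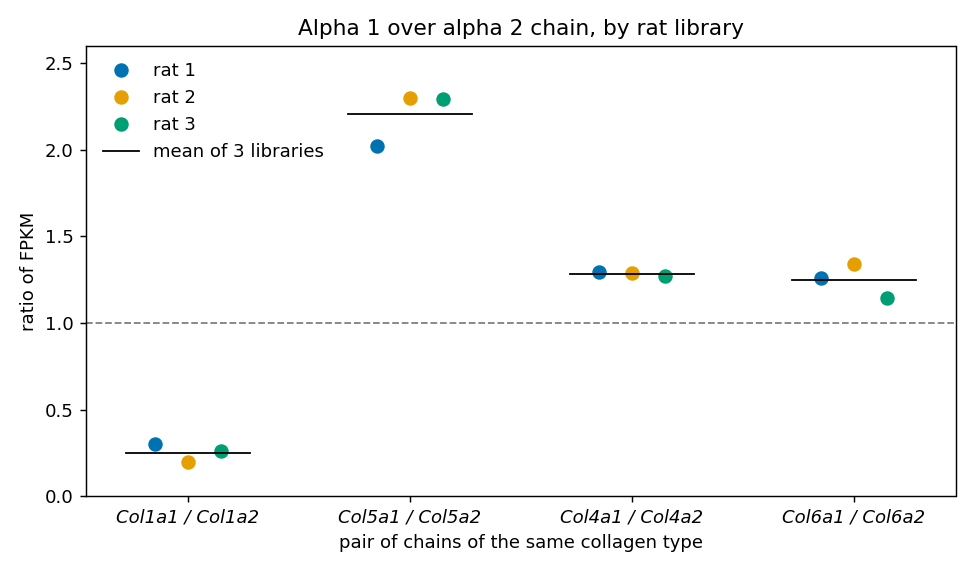
Ratio of the FPKM of the alpha 1 to the alpha 2 chain gene for 4 collagen types in each rat library, with the mean as a black line and a ratio of 1 dashed. Col1a1 to Col1a2 lies at 0.196 to 0.299, and the other 3 pairs lie above 1.

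Matrix genes outside the 8 repeated the low value of rat 2 in part. Of 10 other matrix genes at 1 FPKM or more, 6 were lowest in rat 2, and so were 4 of 7 basement membrane genes, against 22.6% of all rows. With libraries scaled by the median of ratios these counts were 6 and 5, against 33.5%. Fn1, fibronectin, which hepatocytes also secrete into plasma, had 450, 168 and 494 FPKM in rat 1, rat 2 and rat 3. Mgp, matrix Gla protein, had 53.5, 35.7 and 61.7 FPKM, and Col6a1 17.5, 11.4 and 15.2. Sparc, a collagen-binding glycoprotein, had 45.6, 35.7 and 44.7 FPKM, and Col4a1 5.12, 3.65 and 3.91. Col18a1 and Vtn, which hepatocytes express, were nearly level, at 171, 183 and 184 and at 2808, 2800 and 2666 FPKM. Of the other fibrillar collagens only Col5a1, Col27a1 and Col5a2 of 8 reached 1 FPKM, and Col2a1 and Col11a1 were listed at 0. Col5a1 had 2.73, 3.01 and 3.12 FPKM and Col5a2 1.35, 1.31 and 1.36, so Col5a1 was lowest in rat 1 and the libraries hardly differed for Col5a2. Col27a1 had 1.77, 2.88 and 1.39 FPKM in rat 1, rat 2 and rat 3, so it was highest in rat 2, the lowest library of Col1a1, Col1a2 and Col3a1.

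The genes that fold and crosslink collagen were divided over their lowest library. Of 13 at 1 FPKM or more, 6 were lowest in rat 2, against 22.6% of all rows (33.5% with median-of-ratios scaling, which left the count at 6), and 5 in rat 3, against 28.9%. P4hb, a subunit of prolyl hydroxylase and a general disulfide isomerase, was the most abundant at 367, 402 and 509 FPKM in rat 1, rat 2 and rat 3. P4ha2, a catalytic subunit, had 19.6, 17.5 and 14.2 FPKM, and P4ha1 was listed at 0. Serpinh1, the collagen chaperone, had 4.25, 3.11 and 3.31 FPKM, and Pcolce, which speeds removal of the procollagen tail, 3.16, 1.97 and 4.09. Among the small leucine-rich proteoglycans related to Dcn, Bgn had 56.7, 49.6 and 49.4 FPKM and Prelp 16.7, 11.6 and 12.9, without the high value of rat 3 that Dcn had. Lum and Fmod, at under 1 FPKM, were highest in rat 3, with 0.321, 0.101 and 0.568 FPKM for Lum and 0.108, 0.0756 and 0.478 for Fmod.

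Genes of TGF-beta signalling, which drives collagen synthesis in stellate cells, shared the order of the collagens in part. Of 16 such genes at 1 FPKM or more, 7 had the order rat 1, rat 3, rat 2, against 8.56% of rows, and 10 were lowest in rat 2, against 22.6%. Ctgf, a matricellular target of TGF-beta, had 9.69, 2.98 and 5.47 FPKM in rat 1, rat 2 and rat 3. The ligand gene Tgfb1 had 3.30, 2.61 and 3.25 FPKM, and Tgfbr2, a receptor, was level at 32.5, 32.2 and 32.8. With libraries scaled by the median of ratios, 8 of the 16 had this order, against 16.2% of rows.

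Acute-phase genes, which hepatocytes express in inflammation, had the same low library. Of 25 at 1 FPKM or more, 24 were lowest in rat 2, against 22.6% of all rows, and 13 had the order of the collagens, against 8.56%. With libraries scaled by the median of ratios these counts were 24, against 33.5% of rows, and 15, against 16.2%. The list summed to 62117, 26765 and 69902 FPKM in rat 1, rat 2 and rat 3. Stat3, a transcription factor of this response, had 80.3, 48.0 and 62.8 FPKM, and A2m, a rat acute-phase protein, 191, 0.571 and 52.3. Il6 was listed at 0 in each library. Timp1, which rodent liver can induce in the same response, had overlapping bounds in all libraries, so its order cannot be set against this one. The part of the acute-phase difference in the collagen values was not tested.

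**Figure D5:**
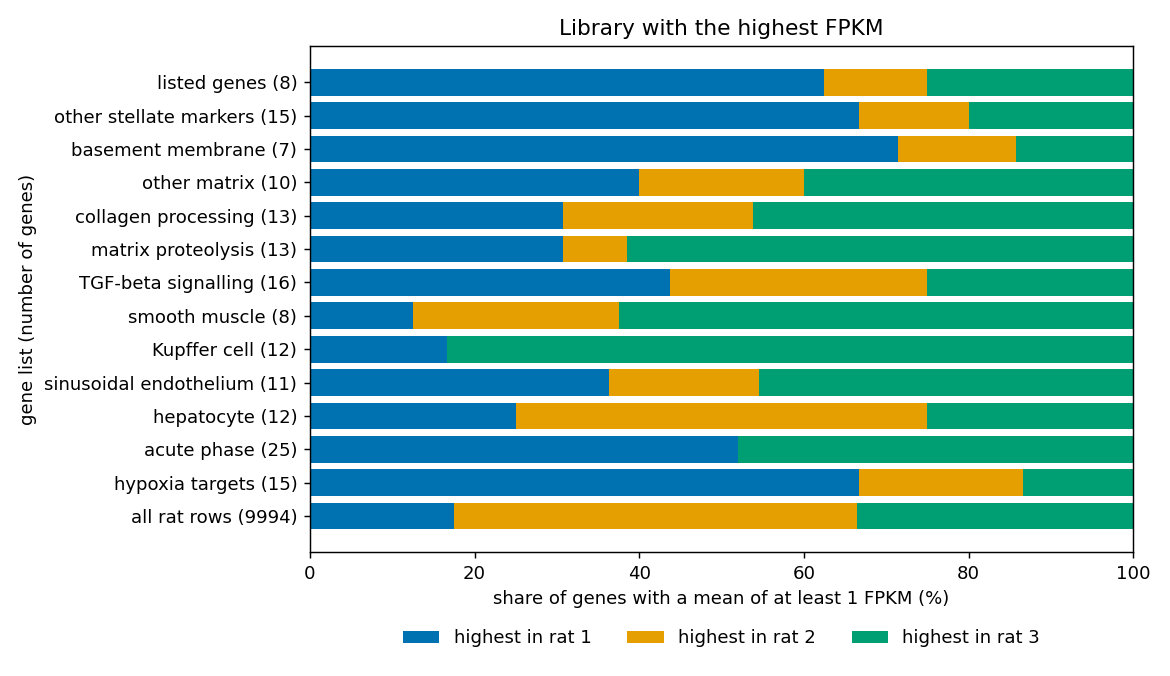
Share of genes (%) whose highest FPKM was in rat 1, rat 2 or rat 3, for the 8 genes and for 12 other lists, with the number of genes at 1 FPKM or more in brackets, on FPKM as deposited. Rat 1 was highest for 62.5% of the 8 genes and 17.5% of all rat rows. Scaled by the median of ratios, rat 1, rat 2 and rat 3 were highest for 31.5%, 36.4% and 32.0% of all rows.

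Genes of at least 10 FPKM whose pattern lay nearest to each of the 8 were found by the distance between centred log2(FPKM + 1) values over the 3 libraries, among 3907 genes. With 3 points per gene this is a weak measure of likeness. St6gal1 and Col6a1 were nearest to Col3a1, Fndc3b was the nearest to Col1a1, and Stat3 was among the nearest to Col1a2. Fcer1g and Mthfd1 were nearest to Des, Psmb10 and Cyp3a9 to Dcn, and St8sia3 and P4ha2 to Reln. Only 3 genes lay within a distance of 0.1 of Dcn and 9 within that of Col1a2. For Pdgfrb, with Ssr4 and Cfdp1 nearest, 369 did, and for Timp1, with Psmc6 and Sbds nearest, 407 did.

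Although no naked mole rat row carried 1 of the 9 symbols, 5 genes of the other matrix lists had rows in both species. They are set side by side without a test, since the tables were normalized separately and the rows differ in extent. TIMP3 had 7.39 ± 0.0987 FPKM in naked mole rat and 6.91 ± 0.677 in rat (SD, n = 3 each), with rows spanning 324506 and 49929 bp. NID2, a basement membrane linker, had 24.7 ± 7.20 FPKM in naked mole rat and 0.921 ± 0.323 in rat, but its naked mole rat row spans 3211185 bp, against 55713 bp in rat. LAMA4, a laminin chain, had 0.447 ± 0.292 FPKM in naked mole rat and 0.396 ± 0.0767 in rat. FAP, a fibroblast protease, had 2.01, 1.58 and 1.56 FPKM in naked mole rat 1, 2 and 3, while rat listed 0.0250, 0 and 0.0246, with rows of 3476635 and 68452 bp. TIMP4 was at or near 0 in both, at 0, 0 and 0.114 FPKM in naked mole rat and 0.0327, 0 and 0.0321 in rat.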

How the data were processed

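The authors deposited 1 table per library, with FPKM and confidence bounds laid out like Cufflinks gene output, per the file headers. Tools in the submitters' processing notes are Picard 1.137, Cufflinks 2.1.1, TopHat2 2.0.9 and Bowtie2 2.1.0, with no genome build or annotation stated. Coordinates are printed as deposited, and whether starts count from 0 or 1 is not stated.

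Rows were matched to symbols without regard to case with Python 3.11.15 and pandas 2.3.3. The rat value of 1 row (Alb) with the status HIDATA was treated as missing. FPKM was used as deposited. Rows averaging 1 FPKM or more formed the background, spreads were taken on log2(FPKM + 1), which understates differences of low genes, and the order and spread functions were tested on simulated data. Each library is 1 sample and rats form 1 group, so no test between libraries exists. A limma comparison of the species was planned only where a listed gene had rows in both, and was not run. FPKM carries no counts, so no counting interval was computed.

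The 9 genes and the other lists were chosen with earlier results of these data known. The naming rule takes the 9 genes, up to 4 genes per list by level and the 1 widest, the 2 nearest patterns per gene, and list genes with a naked mole rat row; every other gene or chain ratio given outside that rule, such as Lrat, Gfap, Myh11, Actg2, Timp2, Tgfb1, Serpinh1, Stat3 and the genes listed at 0, was chosen after its values were seen. A few genes within the naming rule are left out of the text. Alternatives were the scaling of libraries, the pseudocount, the filter and leaving out each library.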

Additional observations from a re-analysis of the deposited data

How the results depend on the processing

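The median of the 8 mean levels was 3.17 FPKM and ran from 2.98 to 3.06 when 1 library was left out, a move larger than the spread between libraries only without rat 3. It was 3.18 and 3.17 with libraries scaled by the median of ratios and by total FPKM. The count of 4 genes in the order rat 1, rat 3, rat 2 was 4 under each of the 3 scalings and with no filter. With a minimum mean of 10 FPKM it was 1, since Col3a1 alone of the 8 passes. The share of all rows in that order was 8.56% as deposited, 16.2% and 16.0% scaled by the median of ratios and the upper quartile, and 10.1% with no filter. The median spread was 0.61 and lay between 0.60 and 0.74 under the other scalings, filters and pseudocount, and between 0.13 and 0.42 with 1 library left out, lowest without rat 3. Order cannot be given with a library left out. Of the other values recomputed, 91 kept within the spread between libraries or 1.5 times the count and 16 moved further. No paired analysis was possible because no value here comes from a test between groups: none of the 9 genes has a naked mole rat row. The absolute depth is unknown, and with 3 libraries of 1 group the differences have no replicate check.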

Other observations

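COL9A1, a collagen gene on none of the lists, has a row in the naked mole rat tables and was added after its values were seen. It had 6.63, 4.48 and 25.9 FPKM in naked mole rat 1, 2 and 3, on a row of 2847715 bp. In the 3 rat libraries it was listed at 0, on a row of 83680 bp. The listed genes with a naked mole rat row, beyond the matrix genes set side by side above, were outside matrix biology. ALAS2, of haem synthesis in red cells, had 1.95 ± 0.442 FPKM (SD, n = 3) and no rat row, and HBB, a globin, had 64.8 ± 21.3 FPKM in naked mole rat and 54.4, 357 and 348 FPKM in rat 1, rat 2 and rat 3. APOH had 57.9, 34.7 and 51.7 FPKM in naked mole rat and 3427 ± 180 in rat (SD, n = 3), and LDHA was listed at 0 in naked mole rat and had 1567 ± 79.8 in rat. The APOH row of naked mole rat covers 2368397 bp, whereas the rat row covers 14126 bp. For LDHA the naked mole rat row covers only 474 bp and the rat row 9471 bp. With rows so unlike in extent, these values cannot show a difference between the species in APOH, LDHA or COL9A1.

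Sinusoidal endothelial markers, the cells that line the space where stellate cells lie, were highest in rat 1 for 4 of 11 genes (17.5% of all rows), in rat 2 for 2 (48.9%) and in rat 3 for 5 (33.5%), with a list sum of 123, 118 and 119 FPKM. With libraries scaled by the median of ratios, 6 of the 11 were highest in rat 1, against 31.5% of rows. Hypoxia targets at 1 FPKM or more were highest in rat 1 for 10 of 15 genes, against 17.5% of all rows (13 when scaled, against 31.5%), and lowest in rat 3 for 10 of 15, against 28.9%. Vegfa, an angiogenic factor, had 88.6, 117 and 70.2 FPKM, and Hmox1, haem oxygenase, 112, 60.1 and 48.3. Red cell markers were far lower in rat 1, with Hba-a2 at 336, 1974 and 2282 FPKM. Igfbp6, on the portal fibroblast list, had 5.09, 0.600 and 6.14 FPKM, the widest fold of that list.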
